A study of Mus musculus with 12 samples.

Results

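The genes described here are 10 immediate early and stress response genes of the mouse, chosen by symbol: Fos, Fosb, Jun, Junb, Jund, Atf3, Egr1, Ier2, Dusp1 and Zfp36. Each symbol has 1 row among the 24421 of the count table, and all 10 are among the 12981 genes with enough reads to be tested. Messenger RNA came from myeloid cells of the tibialis anterior, a leg muscle, taken on day 5 after injection of notexin, a toxin that destroys muscle fibres. All 12 libraries came from mice with at least 1 null allele of Ifngr1, the interferon-γ receptor subunit, since the reference genotype is wt/null and the other is null/null. Mice received either a TNF-α neutralizing antibody (anti-TNF) or an isotype control by daily injection. Both genotypes with both antibodies gave 4 groups of 3 libraries each. Cells were sorted as negative for propidium iodide, positive for CD45 and CD11B, and negative for LY6G and SIGLECF, and are labelled macrophages. The labels do not say that the libraries of a group are separate mice, so p-values measure the spread between these libraries, which may be technical.

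Immediate early genes are transcribed within minutes of a stimulus, from factors already present in the cell such as serum response factor and CREB, and most of their messages decay quickly. Fos and Jun proteins pair into the AP-1 transcription factor, while Dusp1 and Zfp36 act as brakes on the same signals. In macrophages they respond to bacterial products, cytokines and phagocytosis, and in mouse muscle they are also known to respond to enzymatic digestion of the tissue, a step that these cells underwent before sorting.

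Libraries held 23159524 to 29947668 counts. The members took between 0.467% of counts (wt/null isotype library 1) and 0.919% (wt/null anti-TNF library 2). Levels are given in CPM, the read count of a gene relative to the TMM-scaled total of its library. Macrophage and monocyte markers were present in every library, with all 10 in the table and a summed level of 25020 to 31820 CPM. Lyz2 alone made up 13272 to 19014 CPM of that sum, so it says little of the other markers. Ifngr1 was at 226 to 250 CPM in the 6 wt/null libraries and at 83.3 to 119 CPM in the 6 null/null libraries, so the labels of genotype were met. Wt/null anti-TNF library 2 and null/null anti-TNF library 1 stood apart in Mmp9, Ctsk and some markers of macrophages, monocytes and other cells. The genes given next were picked because they separate these 2 libraries, so they describe the split and do not test it. Flt3, a dendritic cell receptor, was at 87.3 and 89.3 CPM in them and at 20.4 to 32.1 CPM in the other 10. Gzma, a cytotoxic granule protease, was at 5.24 and 1.82 CPM against at most 0.477 CPM, and Cd8a at 5.65 and 2.99 CPM against at most 1.09 CPM. Mmp9, a gelatinase, was at 6.80 and 19.2 CPM in them and above 171 CPM elsewhere. Ctsk, a collagen-degrading cathepsin, was at 21.0 and 35.9 CPM against at least 261 CPM. Of the macrophage and monocyte markers, Ccr2 was at 796 and 839 CPM in them against at most 654 CPM. Ly6c2 was at 77.8 and 30.3 CPM against at most 24.7 CPM, and Fcgr1 at 636 and 529 CPM against at most 463 CPM. Lyz2 went the other way, at 14613 and 13272 CPM against at least 15360 CPM. The remaining markers of that list did not separate these libraries from the others. Comparisons of the members that change sign or size without these 2 libraries are given both ways. In sorted bulk cells, fewer cells of a type and less RNA per cell cannot be told apart.

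Because the members moved together across libraries, promoter sequence from RefSeq (GRCm38.p6) was read for the 8 with an entry; Ier2 and Egr1 had none. Shown are the 200 bases before the annotated start of Fos, Junb and Jun, and the part of the Dusp1 promoter that holds the longest match. Capitals mark the CREB half-site TGACG, or for Dusp1 the full element TGACGTCA that contains it. The Jun window holds neither and is shown for comparison. It does hold tgacatca, which differs from TGACGTCA in a single letter.
Fos, chr12:85473690-85473889, plus strand: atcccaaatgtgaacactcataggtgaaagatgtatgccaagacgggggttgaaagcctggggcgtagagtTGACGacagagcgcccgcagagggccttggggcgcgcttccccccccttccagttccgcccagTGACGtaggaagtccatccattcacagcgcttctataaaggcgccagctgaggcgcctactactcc
Junb, chr8:84978749-84978948, minus strand: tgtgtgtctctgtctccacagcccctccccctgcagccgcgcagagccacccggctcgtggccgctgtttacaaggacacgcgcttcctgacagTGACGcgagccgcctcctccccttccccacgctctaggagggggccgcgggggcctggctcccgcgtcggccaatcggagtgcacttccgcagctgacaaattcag
Jun, chr4:95052223-95052422, minus strand: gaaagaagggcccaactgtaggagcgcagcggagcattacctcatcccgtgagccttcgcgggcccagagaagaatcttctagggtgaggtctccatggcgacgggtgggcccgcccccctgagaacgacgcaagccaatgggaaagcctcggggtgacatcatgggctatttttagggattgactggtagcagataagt
Dusp1, chr17:26508578-26508645, minus strand: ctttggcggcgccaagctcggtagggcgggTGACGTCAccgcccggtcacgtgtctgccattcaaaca

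On either strand of the 250 bases before the start, TGACG was found in 5 of the 8 promoters (Fos, Fosb, Junb, Atf3 and Dusp1) and in 17.77% of 32851 RefSeq promoters. The full element TGACGTCA was in 1 of 8 (Dusp1) and in 1.55% of all. The AP-1 site TGANTCA was in 0 of 8 and in 6.75% of all. GCGNGGGCG, a site of the Egr family, was in 2 of 8 (Fosb and Zfp36) and in 4.70% of all. TATAAA was in 1 of 8 (Fos) and in 12.37% of all, and the CArG box bound by serum response factor in 1 of 8 (Zfp36) and in 1.47% of all. These motifs were picked with the sequences in view, and a match describes letters only. Sequence farther upstream was not read, so a motif not found in these 250 bases, the CArG box included, may lie outside them. The Zfp36 window lies inside an annotated exon and is not printed. Windows are placed by the RefSeq start, which differs from the GENCODE gene start for Jund, Atf3, Fosb and Zfp36 as well as for the printed Junb (84978748 in RefSeq, 84978718 in GENCODE) and Dusp1 (26508472 in RefSeq, 26562128 in GENCODE), so these windows are promoters of the RefSeq starts.

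Per kilobase of exon, the 12-library mean was highest for Junb (614 CPM per kb, SD 146) and Fos (558, SD 104). Zfp36 (302, SD 72.8), Dusp1 (302, SD 75.9), Jund (270, SD 56.9), Atf3 (268, SD 68.1) and Jun (238, SD 55.1) lay within 1 SD of their neighbours in that order. Ier2 (90.9, SD 21.7) and Fosb (79.0, SD 33.2) were lower, and Egr1 (21.0, SD 10.2) was lowest. The order of the neighbours whose ranges overlap is a description of these libraries.

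Fos (ENSMUSG00000021250, chromosome 12:85473890-85477273, plus strand, GRCm38) encodes the partner of Jun in AP-1. It was at 931, 1004 and 1375 CPM in wt/null isotype and at 1062, 1599 and 1177 CPM in wt/null anti-TNF. In null/null it was at 1070, 1328 and 1056 CPM under isotype and at 1292, 1383 and 849 CPM under anti-TNF. The 4 groups overlapped throughout, and the lowest and the highest library were both anti-TNF libraries. Fosb (ENSMUSG00000003545, chromosome 7:19302696-19310051, minus strand), a second Fos family member, was at 158, 157 and 336 CPM in wt/null isotype and at 266, 591 and 252 CPM in wt/null anti-TNF. It was at 190, 445 and 245 CPM in null/null isotype and at 369, 321 and 257 CPM in null/null anti-TNF. Its highest library was 3.77 times its lowest, against 1.88 times for Fos. The Fosb to Fos ratio of CPM ran from 0.156 (wt/null isotype library 2) to 0.370 (wt/null anti-TNF library 2).

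Jun (ENSMUSG00000052684, chromosome 4:95049034-95052222, minus strand) was at 556, 630 and 824 CPM in wt/null isotype and at 639, 1169 and 792 CPM in wt/null anti-TNF. It was at 653, 783 and 651 CPM in null/null isotype and at 915, 898 and 594 CPM in null/null anti-TNF. The anti-TNF values ran from within the isotype range to above it. Junb (ENSMUSG00000052837, chromosome 8:84974484-84978718, minus strand), a Jun family member that pairs with Fos proteins, had means of 945 ± 265 CPM under isotype and 1234 ± 376 CPM under anti-TNF in wt/null, and of 1092 ± 250 and 1170 ± 198 CPM in null/null (SD, n = 3 each). Jund (ENSMUSG00000071076, chromosome 8:70698949-70700616, plus strand), the Jun family member known for steady expression in resting cells, had means of 402 ± 101 and 493 ± 140 CPM in wt/null and of 435 ± 107 and 475 ± 29.6 CPM in null/null, in the same order. Jund ran from 316 CPM (null/null isotype library 1) to 646 CPM (wt/null anti-TNF library 2), a 2.05-fold range that is no narrower than that of Fos. Junb overlaps Prdx2 on the other strand, and the sources used here do not give the strand setting of the counting, so reads of that pair could not be told apart with certainty.

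Atf3 (ENSMUSG00000026628, chromosome 1:191170296-191218039, minus strand), a stress-induced factor that represses inflammatory genes in macrophages, was at 463, 442 and 586 CPM in wt/null isotype and at 539, 948 and 568 CPM in wt/null anti-TNF. In null/null it was at 436, 648 and 488 CPM under isotype and at 658, 695 and 461 CPM under anti-TNF. Egr1 (ENSMUSG00000038418, chromosome 18:34859823-34864984, plus strand), a zinc finger transcription factor induced through MAP kinases, was at 63.7, 64.0 and 97.4 CPM in wt/null isotype and at 74.5, 224 and 91.2 CPM in wt/null anti-TNF. It was at 65.1, 108 and 55.5 CPM in null/null isotype and at 123, 95.04 and 67.6 CPM in null/null anti-TNF. Egr1 had the widest range of the 10 genes at 4.04-fold, and without wt/null anti-TNF library 2 it was 2.22-fold, below Fosb (2.84-fold) and Dusp1 (2.25-fold). Ier2 (ENSMUSG00000053560, chromosome 8:84661331-84662852, minus strand), a nuclear protein induced by growth factors, had means of 119 ± 18.3 CPM under isotype and 157 ± 57.6 CPM under anti-TNF in wt/null, and of 133 ± 24.6 and 144 ± 22.7 CPM in null/null (SD, n = 3 each).

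Dusp1 (ENSMUSG00000024190, chromosome 17:26505590-26562128, minus strand) encodes a phosphatase that switches off p38 and JNK. It was at 579, 424 and 954 CPM in wt/null isotype and at 535, 983 and 848 CPM in wt/null anti-TNF. In null/null it was at 532, 782 and 771 CPM under isotype and at 741, 847 and 593 CPM under anti-TNF. Its annotated span overlaps Ergic1 on the other strand, with the same uncertainty as for Junb. Zfp36 (ENSMUSG00000044786, chromosome 7:28376784-28380253, minus strand), which encodes tristetraprolin, a protein that marks AU-rich messages such as that of Tnf for decay, was at 757, 821 and 1147 CPM in wt/null isotype and at 910, 1629 and 1074 CPM in wt/null anti-TNF. It was at 863, 1105 and 982 CPM in null/null isotype and at 1168, 1324 and 788 CPM in null/null anti-TNF. Zfp36 kept a nearly fixed ratio to Jun, from 1.28 to 1.51 across the 12 libraries.

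**Figure D1:**
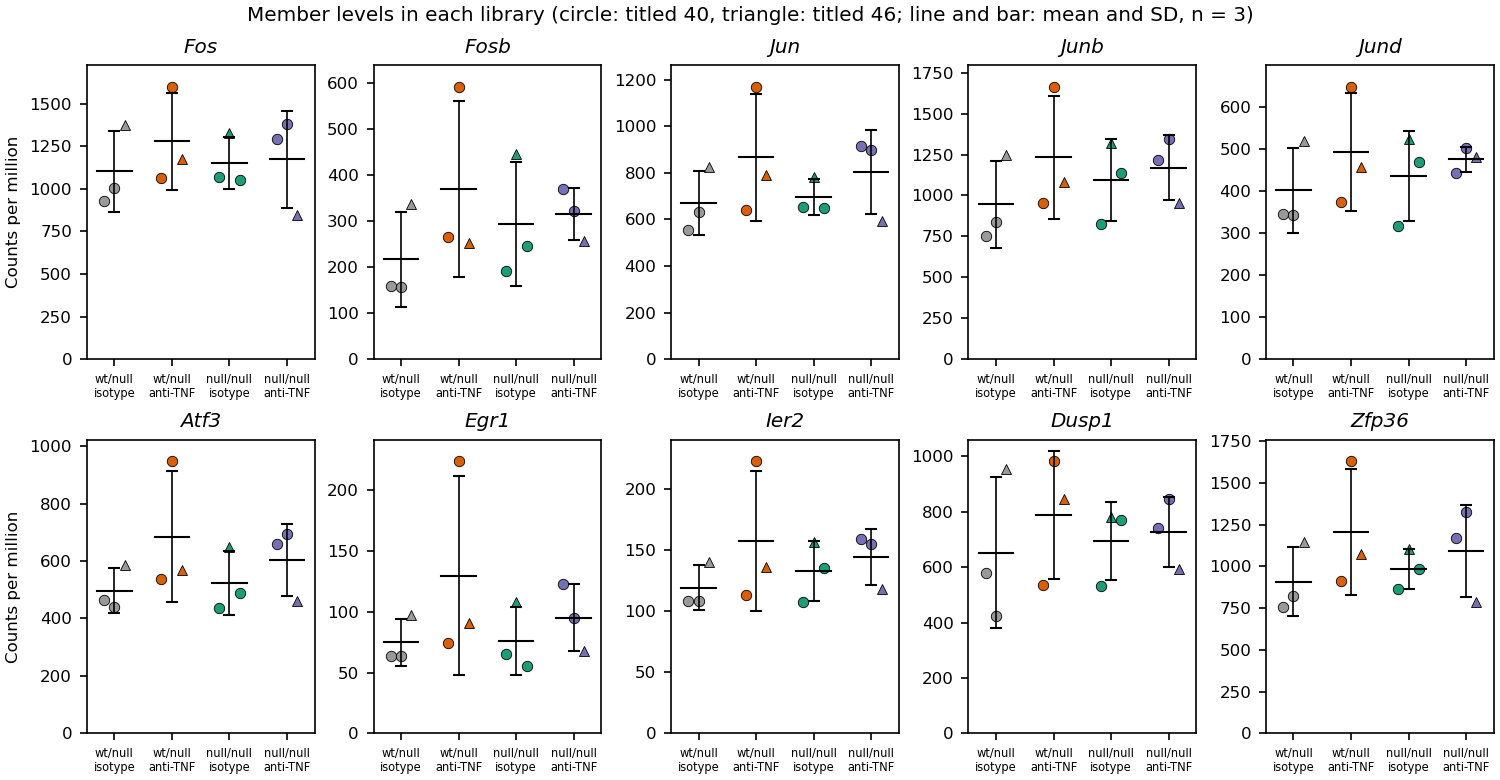
CPM of each of the 10 genes (vertical axes, from 0) in the 4 groups. Each point is 1 library, circles are titled 40 and triangles 46, and the line and bar are the group's mean and SD (n = 3). Wt/null anti-TNF library 2 is the highest point in every panel, and the groups overlap in all 10.

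The same libraries were high or low for nearly all members. Wt/null anti-TNF library 2 was the highest of 12 for 10 of 10 genes, at a mean of 0.74 above the genes' own 12-library means on the log2 scale. All 10 genes also lay above their means in null/null anti-TNF library 2 (mean 0.25), null/null isotype library 2 (0.25), null/null anti-TNF library 1 (0.23) and wt/null isotype library 3 (0.20). In wt/null isotype library 1 (mean -0.42), wt/null isotype library 2 (-0.41), null/null isotype library 1 (-0.35) and wt/null anti-TNF library 1 (-0.19), 0 of 10 did. Of the other 3, null/null anti-TNF library 3 had a mean of -0.24, null/null isotype library 3 of -0.11 and wt/null anti-TNF library 3 of 0.05. Each of the 4 groups thus held libraries with a mean above 0 and libraries with a mean below it.

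**Figure D2:**
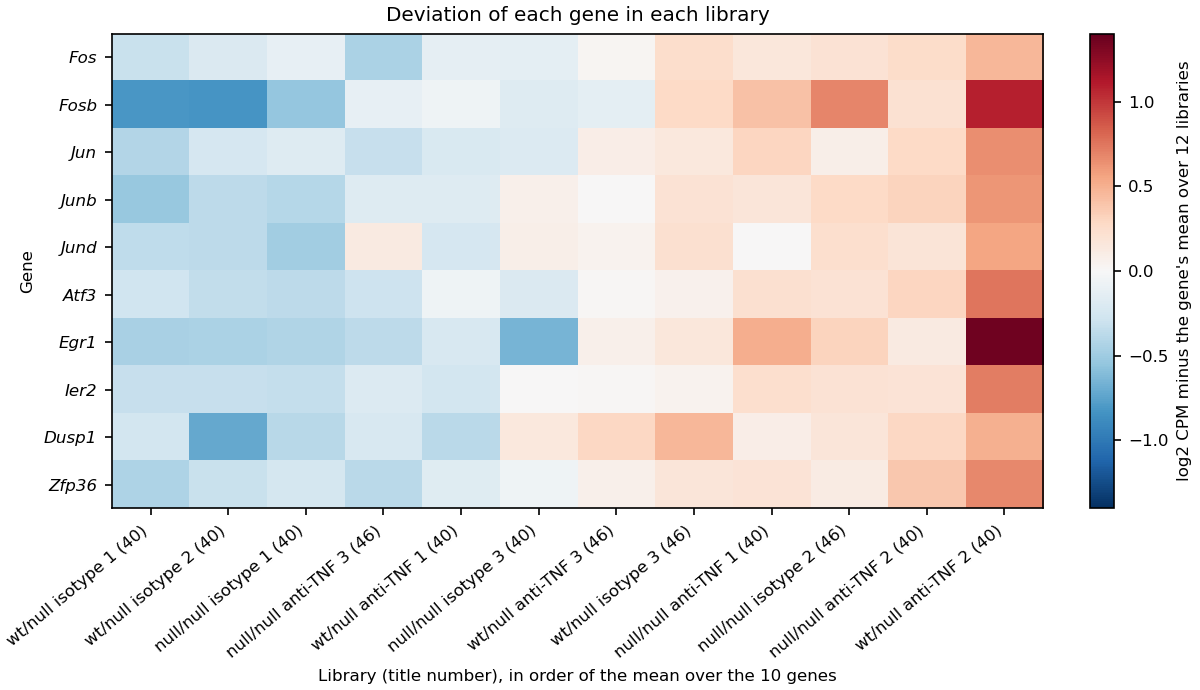
Deviation of log2 CPM from each gene's mean over 12 libraries (colour), with genes in rows and libraries in columns, ordered by the mean over the 10 genes and marked with the title number. Columns are of nearly uniform colour, from a mean of -0.42 in wt/null isotype library 1 to 0.74 in wt/null anti-TNF library 2.

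Loss of the remaining Ifngr1 allele, averaged over antibody, gave 0 of 10 members past an adjusted p of 0.05 in edgeR's quasi-likelihood test with Benjamini-Hochberg adjustment over all genes tested. In that comparison 0.0077% of genes were called, which is Ifngr1 alone. Estimates of null/null minus wt/null ran from -0.21 (Egr1) to 0.10 (Fosb) on the log2 scale, with a median of -0.01, 4 above 0 and 6 below. The 95% interval of Fos, the narrowest case, was -0.36 to 0.30, or 0.779-fold to 1.23-fold, and that of Egr1 was -0.88 to 0.46. No member reached an unadjusted p of 0.05 in edgeR, DESeq2 or limma voom. Null/null and wt/null libraries overlapped for all 10 members, and 0.208% of genes had no such overlap. Single libraries turned the sign of this average: all 10 estimates were above 0 without wt/null anti-TNF library 2 (median 0.12), and 0 of 10 without null/null isotype library 2 (median -0.07). Without both libraries that stood apart 9 of 10 were above 0 (median 0.09). Within the isotype libraries all 10 estimates were above 0 (median 0.10, 0 called, 0.0077% of genes called and 50.7% above 0). That median was -0.02 without null/null isotype library 2, with 4 of 10 above 0, 0.01 without either wt/null isotype library 1 or 2, 0.22 without null/null isotype library 1 and 0.30 without wt/null isotype library 3. Within the anti-TNF libraries all 10 were below 0 (median -0.13, 0 called, 0.0077% of genes called and 50.7% above 0). Without wt/null anti-TNF library 2 all 10 were above 0 (median 0.18), without both libraries that stood apart 8 of 10 were (median 0.08), and without null/null anti-TNF library 3 5 of 10 were (median 0.01). Without wt/null anti-TNF library 1 and null/null anti-TNF library 2, each left out alone, the medians were -0.31 and -0.24.

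TNF neutralization, averaged over genotype, gave higher estimates for 10 of 10 members, and 0 passed the test. Of all genes tested, 51.6% had an estimate above 0. Members vary together, so counts of their signs are not counts of independent genes. The background was 0% of genes called by edgeR. The median of the members was 0.27 on the log2 scale against 0.01 over all genes tested. Egr1 had the highest estimate, 0.56 (SE 0.30, 95% interval -0.11 to 1.23, 1.47-fold). It was followed by Fosb at 0.44 (SE 0.31, 95% interval -0.25 to 1.12) and Atf3 at 0.33 (SE 0.17, 95% interval -0.03 to 0.70). Fos had the lowest, 0.12 (95% interval -0.21 to 0.45). Adjusted p-values from edgeR ran from 0.660 to 0.825, and no unadjusted p was below the 0.0712 of Atf3; DESeq2 gave 0.0432 for Atf3 unadjusted and called 0 members. Anti-TNF and isotype libraries overlapped for all 10 members, and 0.424% of genes had no such overlap. The medians of the 6 anti-TNF and the 6 isotype libraries were 93.1 and 64.6 CPM for Egr1, 613 and 475 CPM for Atf3 and 1234 and 1063 CPM for Fos.

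The size of the antibody estimates changed without wt/null anti-TNF library 2. In wt/null mice the median over members was 0.39 with it and 0.10 without it, and in both fits 0 members were called, against 0% of genes called. Without wt/null isotype library 3 that median was 0.60. Averaged over genotype the median was 0.27 with it and 0.12 without it. Without both libraries that stood apart it was 0.10, 9 of 10 estimates were above 0 and Fos was at -0.01. In null/null mice 10 of 10 estimates were above 0 with a median of 0.12, and 0 were called, with 0% of genes called. Without null/null isotype library 1 that median was -0.01, with 4 of 10 above 0; it was 0.27 without null/null isotype library 2, 0.24 without null/null anti-TNF library 3, 0.08 without null/null anti-TNF library 1 and 0.07 without null/null anti-TNF library 2. The difference between the genotypes in the antibody effect was below 0 for all 10 members (median -0.26), and 0 members passed its test, as did 0% of genes. Without wt/null anti-TNF library 2 it was above 0 for 7 of 10 members (median 0.04), and without both libraries that stood apart for 2 of 10 (median -0.03); with 1 library left out the median ran from -0.43 to 0.04. The smallest adjusted p of the members for that difference was 0.9998 in edgeR. Null/null anti-TNF against wt/null isotype gave 10 of 10 estimates above 0 (median 0.27), 0 members called and 0.0077% of genes called; with 1 library left out, that median ran from 0.16 (without wt/null isotype library 1) to 0.47 (without wt/null isotype library 3). Of all genes, 50.8% were above 0 for antibody in wt/null, 51.3% in null/null, 49.4% for the difference and 50.7% for null/null anti-TNF against wt/null isotype. These comparisons share libraries, and the members vary together, so their signs are not independent of each other.

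Sample titles begin with 40 in 8 libraries and with 46 in 4, 1 of each group, and the meaning of the number is not given in the sources used here. Title number 46 against 40, beside the 4 groups, called 0 of 10 members and 0.0154% of genes, which are Adam19 and Rnase4 in edgeR, while DESeq2 called 150 genes and limma voom 110, with 0 members among them. The median of the members was 0.05. It was 0.19 without wt/null anti-TNF library 2 and 0.22 without both libraries that stood apart, and with 1 library left out it ran from -0.12 (without wt/null isotype library 3) to 0.25 (without null/null anti-TNF library 3). The antibody estimates, however, had opposite signs in the 2 sets of titles. This was noticed in the values above and then fitted in edgeR with a separate antibody effect for each title number. In the libraries titled 40, 10 of 10 estimates were above 0, with a median of 0.55 (0.01 over all genes) and a range of 0.40 (Fos) to 1.06 (Fosb). In those titled 46, 0 of 10 were above 0, with a median of -0.29 (0.00 over all genes) and a range of -0.60 (Fosb) to -0.15 (Jund).

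The split was noticed in the levels given next, so they describe it and do not test it. Among libraries titled 40, Fosb was at 157 to 245 CPM in 4 isotype libraries and at 266 to 591 CPM in 4 anti-TNF libraries. Among those titled 46 it was at 336 and 445 CPM under isotype and at 252 and 257 CPM under anti-TNF. Egr1 was at 55.5 to 65.1 CPM under isotype and 74.5 to 224 CPM under anti-TNF in libraries titled 40, and at 97.4 and 108 CPM against 91.2 and 67.6 CPM in those titled 46. Atf3 was likewise at 436 to 488 CPM against 539 to 948 CPM in libraries titled 40. Fosb, Atf3 and Egr1 were the 3 of 10 members for which every anti-TNF library titled 40 was above every isotype library titled 40, which 3.73% of genes were; 0 of 10 were wholly below, as 4.35% of genes were. In libraries titled 46, 8 of 10 members (all but Jun and Dusp1) were lower in both anti-TNF libraries than in both isotype libraries, as were 13.2% of genes, and 0 of 10 were wholly higher, as were 12.2% of genes. Members vary together, so these counts are not counts of independent genes.

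By the test across all genes, with all 12 libraries, 0 members were called in either set of titles or for their difference, and 0% of genes were called in each. The smallest adjusted p of the members in edgeR was 0.226 within titles 40, 1.00 within titles 46 and 0.963 for the difference. At an unadjusted p of 0.05, 9 of 10 members passed within titles 40 (15.2% of genes), 1 of 10 within titles 46 (0.871%) and 8 of 10 for the difference (4.28%). For Fosb the difference, titled 46 minus titled 40, was -1.66 (95% interval -2.49 to -0.82), and for Dusp1 -0.73 (-1.64 to 0.18). Without wt/null anti-TNF library 2 the medians were 0.37 within titles 40 and -0.27 within titles 46, and without both libraries that stood apart 0.34 and -0.27. The signs were kept by 10 of 10 members in both fits. The Fosb difference was -1.34 and -1.27 in that order, with an adjusted p in edgeR of 0.139 and 0.0527, against 0.963 with all 12 libraries. For the difference, 0 members were called in both fits, against 1 and 0 of all genes. At an unadjusted p of 0.05 in edgeR, 8 and 6 of 10 members passed, as did 3.16% and 3.84% of genes. The libraries titled 46 hold 1 library per group, and the fit takes the genotype difference within each antibody as equal in both sets of titles. The spread it uses is estimated from both sets together. Title number cannot be told apart from whatever else set those 4 libraries off.

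**Figure D3:**
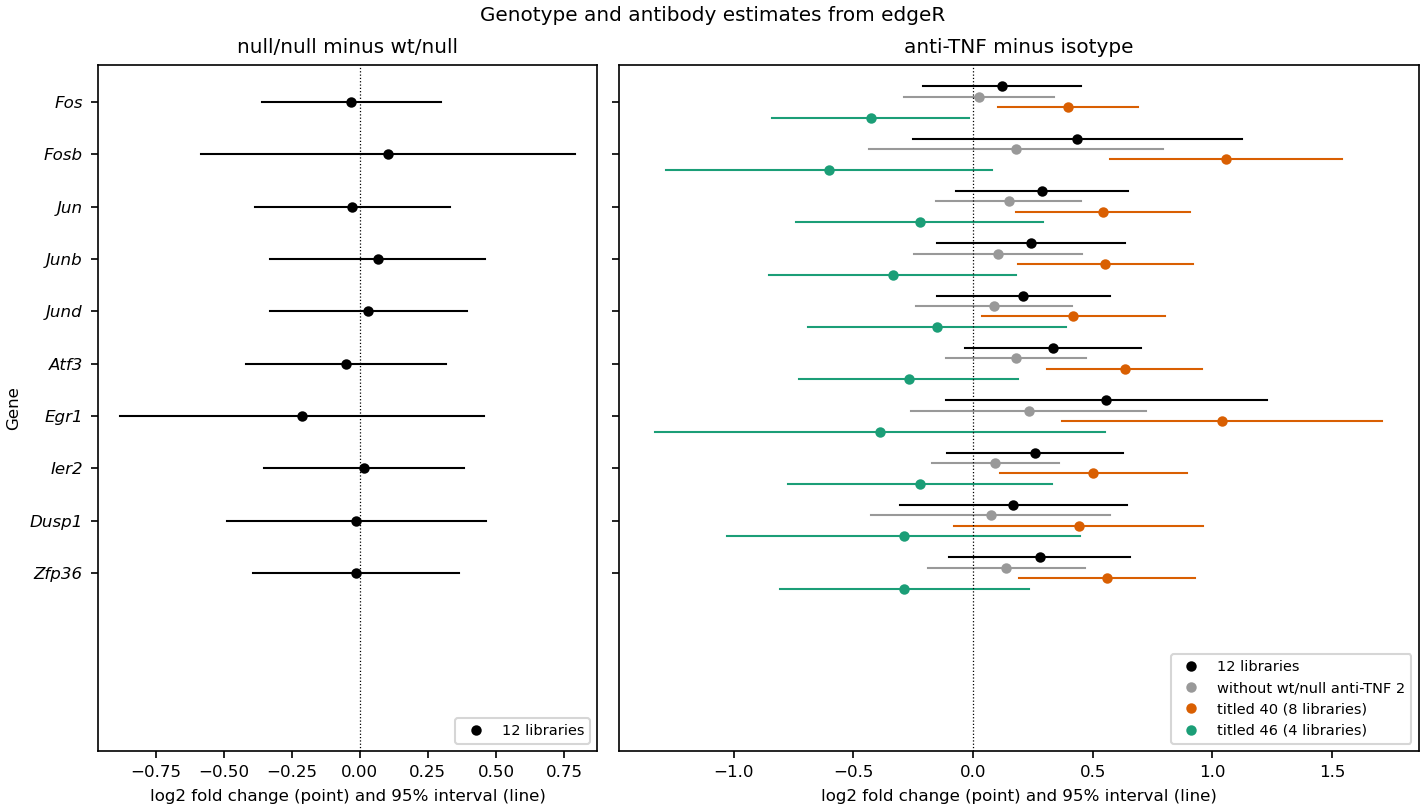
Log2 fold changes (points) with 95% intervals (lines) from edgeR for null/null minus wt/null (left) and anti-TNF minus isotype (right). On the right, black is all 12 libraries, grey leaves out wt/null anti-TNF library 2, and orange and green are the libraries titled 40 and 46; the medians over the 10 genes are 0.27, 0.12, 0.55 and -0.29.

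Libraries of the same group differed more in these genes than in most. The SD of log2 CPM within groups was 0.34 in the median over members and 0.19 over all genes tested. Among genes within 0.5 of its own mean log2 CPM, each member stood between the 90.5th percentile (Jun) and the 98.9th percentile (Egr1) of that SD. Fosb (0.58) and Egr1 (0.57) had the highest SDs, and Fos (0.30) the lowest. The share of variance that lay between the 4 groups was 20.4% in the median over members and 24.0% over all genes. In the median, the group labels thus took no larger a share of variance in the members than in all genes. Atf3 (27.8%), Fosb (26.5%) and Egr1 (25.5%) lay above the median of all genes, and the other members below it.

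Across the 12 libraries, all 45 pairs of members had a positive Pearson correlation of log2 CPM. The range was 0.67 (Egr1 with Dusp1) to 0.98 (Jun with Zfp36), with a median of 0.88. In a permutation test with 100000 resamples, Benjamini-Hochberg adjusted over the 45 pairs, 45 passed 0.05 by Pearson's r, with a highest adjusted p of 0.0149. By Spearman's rho, which ran from 0.55 to 0.97, 44 passed, with a highest adjusted p of 0.067. For each pair, the 2 libraries farthest from the median of its first gene, in the order of the opening, were then left out. This left r between 0.52 (Jund with Egr1) and 0.96 (Junb with Ier2), and 42 pairs passed by r and 36 by rho. Without the 2 libraries that stood apart, r ran from 0.54 (Fos with Jund) to 0.97 (Jun with Zfp36), and 43 passed by r and 40 by rho. Among the 8 libraries titled 40, 45 pairs passed by r and 31 by rho in an exact test over 40320 arrangements, with r from 0.69 to 0.99. With each group's mean removed, r was 0.65 to 0.97 with a median of 0.87, so the relation was present within groups. Jund and Dusp1 held the lower values of this set and Jun, Zfp36, Atf3 and Ier2 many of the higher ones. All pairs share the same libraries, and the correlations are therefore not independent of each other. The share of pairs of other genes that would pass was not computed, so these counts have no background beside them.

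**Figure D4:**
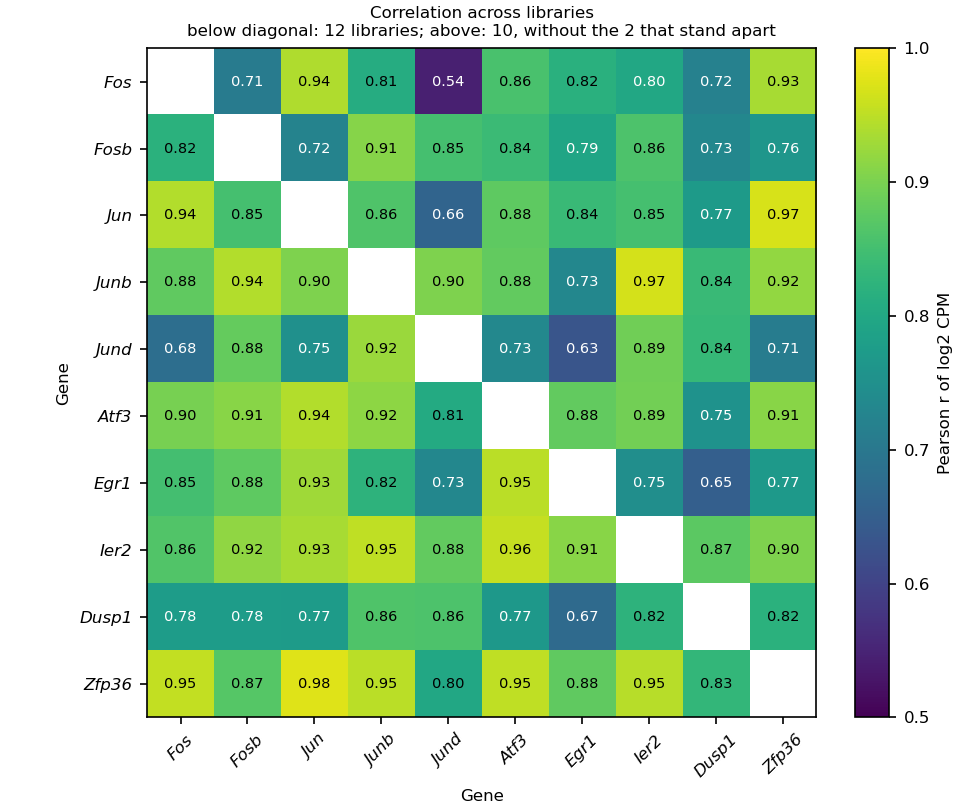
Pearson r of log2 CPM between each pair of the 10 genes, below the diagonal over 12 libraries and above it over 10, without the 2 that stood apart. Below the diagonal r runs from 0.67 to 0.98, and above it from 0.54 to 0.97.

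The genes outside the 10 whose levels followed them most closely were found by the Pearson r with the mean z score of the members, over 12 libraries. They were Nr4a1 (r = 0.96), Slc41a1 (0.95), Gdf15 (0.95), Gadd45b (0.95), Dusp2 (0.94) and Hspa1a (0.94). Nr4a1 encodes an orphan nuclear receptor induced as an immediate early gene, and ran from 361 CPM (wt/null isotype library 1) to 910 CPM (wt/null anti-TNF library 2). Slc41a1, a magnesium transporter, ran only from 19.4 to 28.6 CPM. Gdf15, a stress-induced cytokine, ran from 42.6 to 172 CPM, and Gadd45b, a stress sensor upstream of p38, from 170 to 419 CPM. Dusp2, a nuclear phosphatase of ERK, ran from 35.2 to 110.0 CPM. Hspa1a, the inducible heat shock protein 70, ran from 416 to 992 CPM; its near-identical copy Hspa1b was at 378 to 978 CPM, and how reads were shared between the pair is uncertain. Without the 2 libraries that stood apart, r was 0.88 (Hspa1a) to 0.94 (Nr4a1) for these 6 genes.

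Further genes of the pathway were taken from 6 lists, and in every list 0 genes were called in each of the 9 comparisons of group or title. An r of at least 0.8 with the members' mean z score was reached by 1.13% of all tested non-members. Of 24 other AP-1 and immediate early transcription factors, 9 reached it, among them Nr4a1, Csrnp1, Klf2 and Egr2. Of 30 immediate early feedback and effector genes 13 did, among them the NF-κB inhibitors Nfkbia and Tnfaip3 and the antiproliferative Btg2. Of 15 messages bound by the Zfp36 protein 8 did, among them Ccl4, Pim1, Il10 and Il1b. The counts were 3 of 15 for heat shock genes (Hspa1a, Hspa1b and Dnajb1) and 4 of 17 for integrated stress response genes (Ppp1r15a, Atf4, Ddit3 and Sqstm1). Of 21 mitogen-activated kinases and ternary complex factors, 1 did (Map3k8). Without the 2 libraries that stood apart, the counts were 5, 9, 4, 2, 2 and 0 in that order and 0.601% for all non-members. For TNF neutralization the median estimate of the lists on the log2 scale was 0.23, 0.18, 0.57, 0.14, 0.06 and -0.01 in the same order, against 0.01 over all genes tested. At an unadjusted p of 0.05 in edgeR, 3, 1, 2, 0, 1 and 2 of their genes passed in that comparison, as did 7.31% of all genes. The lists were chosen with results of these data known, and their counts describe these libraries.

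**Figure D5:**
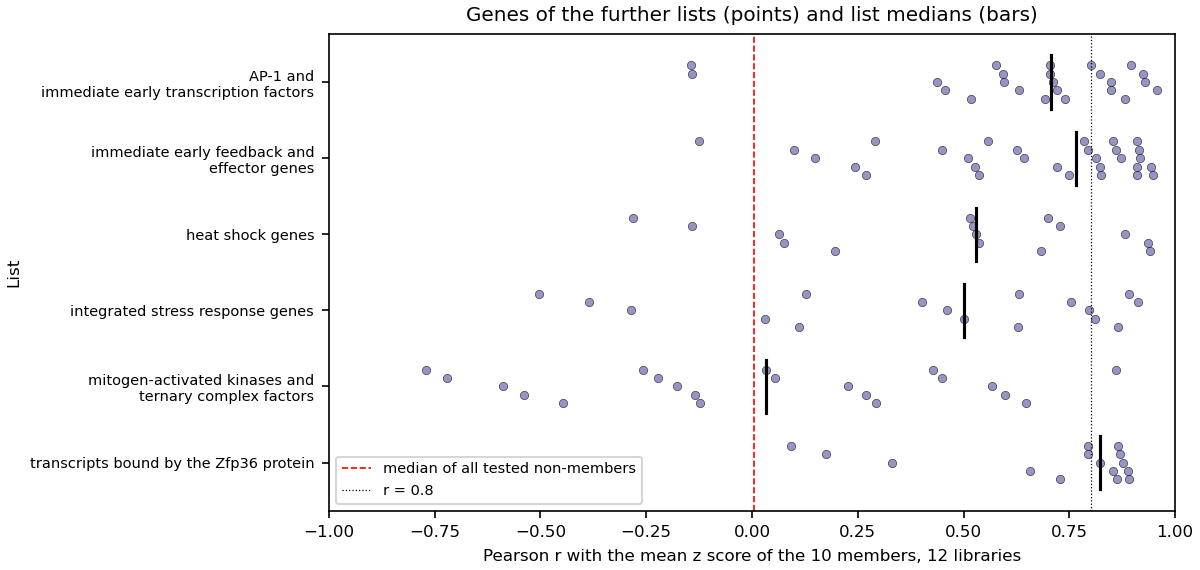
Pearson r over 12 libraries between each gene of 6 lists (points) and the mean z score of the 10 members, with list medians as black bars. The medians run from 0.03 for the kinases and ternary complex factors to 0.82 for messages bound by Zfp36; the dashed line is the median of all tested non-members, 0.00.

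Genes of these lists with the smallest unadjusted p, over the genotype and the antibody averages, are given as values. Under anti-TNF against isotype, in log2 units, the estimates were 0.45 for Batf3 and 0.80 for Egr3, both transcription factors, and 0.66 for Nfkbiz, an atypical IκB protein. They were 0.41 for Dnajb1 and 0.40 for Hspa1b, both heat shock proteins. For integrated stress response genes they were 0.13 for Atf4 and -0.13 for the kinase gene Eif2ak3, and 0.39 for the p38 kinase kinase Map2k6. Among messages bound by Zfp36 they were 0.67 for Il6, at 0.623 to 2.33 CPM, and 0.86 for the neutrophil chemokine Cxcl1, at 7.40 to 41.8 CPM. For null/null against wt/null they were 0.30 for Odc1, the first enzyme of polyamine synthesis, and 0.21 for the ternary complex factor Elk1. Adjusted p-values of all these antibody estimates were between 0.660 and 0.661 and of both genotype estimates 1.00 in edgeR with Benjamini-Hochberg adjustment. Tnf itself, the ligand that was neutralized, was at 105 CPM in wt/null anti-TNF library 2 and at 20.7 to 42.1 CPM in the other 11 libraries.

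Some markers of other cells stood out in the library where the members were highest, and others in other libraries. All 8 dendritic cell markers were in the table, and their summed level was 360 CPM in wt/null anti-TNF library 2, 302 CPM in null/null anti-TNF library 1 and 97.4 to 156 CPM in the other 10. The 7 natural killer cell markers summed to 42.4, 32.0 and 7.48 to 16.0 CPM in the same order. Klrd1 made up 22.4 and 19.9 CPM of the first 2 sums. Klrb1c, at 5.94 and 5.76 CPM, was below the 6.06 CPM of wt/null anti-TNF library 3. The 7 endothelial markers summed to 52.0, 46.3 and 19.9 to 40.2 CPM. Of the first 2 sums, Pecam1 made up 18.6 and 16.1 CPM and Kdr 16.6 and 16.9 CPM. Ptprb, Cldn5, Tek and Emcn were each higher in some other library. The 5 mast cell markers summed to 21.5, 16.7 and 4.81 to 14.6 CPM, but 21.2 and 14.2 CPM of the first sums were Kit, and Cpa3, Mcpt4 and Tpsb2 were at 0 in wt/null anti-TNF library 2. The 6 fibro-adipogenic markers summed to less, 463, 329 and 695 to 1755 CPM, and Col1a1, Col1a2 and Col3a1 were each lower in both than in the other 10. Dcn, Lum and Pdgfra, at 17.6, 9.66 and 2.21 CPM in wt/null anti-TNF library 2, were not. Null/null anti-TNF library 3 had Dcn at 15.2 CPM and Pdgfra at 2.09 CPM, and wt/null anti-TNF library 3 had Lum at 8.97 CPM. Null/null anti-TNF library 2 and null/null isotype library 2 also had all 10 members above their means, with dendritic cell sums of 125 and 141 CPM. The 8 T cell markers summed to 93.3 to 199 CPM, of which Cd4 was 92.3 to 195 CPM. Lck was at 5.04 and 2.77 CPM in the 2 libraries that stood apart and lower in the other 10, and Cd8b1 at 3.85 and 2.77 CPM against at most 0.694 CPM. Across the 12 libraries the 5 B cell markers summed to 10.1 to 20.3 CPM and the 9 muscle and satellite cell markers to 54.4 to 98.4 CPM. The 8 neutrophil markers summed to 44.0 CPM in null/null isotype library 1, where 0 of 10 members were above their means, and to at most 5.72 CPM elsewhere. The 4 eosinophil markers summed to 6.37 to 13.1 CPM with Epx at 0 in every library. The part of other cells and of tissue digestion in the members' levels was not tested.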

How the data were processed

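Polyadenylated RNA of sorted cells was prepared with a stranded kit and sequenced in paired ends, per the labels' protocols. The deposited table holds raw counts per gene symbol, 1 column per library. Per the submitters' processing notes, bcl2fastq 2.20, STAR, Bowtie and the mm10 build were used, without stated roles; the counting tool, annotation and strand setting are not given in the sources used here. Columns were matched to samples by title, and replicate numbers are those of listing order and pair nothing.

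Genes were kept by filterByExpr in edgeR 4.0.16 (R 4.3.3), which left 12981. Counts were scaled by TMM and tested with edgeR's quasi-likelihood test over all 12 libraries in a model of the 4 groups, with contrasts for genotype, antibody and their interaction; title number was added as a term for its own comparison. P-values were Benjamini-Hochberg adjusted over all genes tested, with a threshold of 0.05. Standard errors were derived from the test statistic. Correlations used log2 CPM with a prior count of 2 and permutation tests (numpy 2.4.6, pandas 2.3.3), and figures matplotlib 3.10.9. Alternatives were DESeq2 1.42.0, limma 3.58.1 voom with quality weights, RLE scaling, no filter, a filter of 1 CPM in 3 libraries, title number as a block, libraries titled 40 alone, without the 2 libraries that stood apart and without each library in turn. The code for the test was run on simulated data first. Gene positions and exon lengths are from GENCODE vM21 (GRCm38).

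The members and the lists were chosen with earlier results of these data known. All 10 members are named. From each list, genes past the threshold are named, or else up to 2 with the smallest unadjusted p over both averages. Also named are the 6 tested non-members, of mean log2 CPM of at least 2, with the highest r to the members' mean z score. Ifngr1 and Tnf are named as checks, and Flt3, Gzma, Cd8a, Mmp9, Ctsk, Ccr2, Ly6c2, Fcgr1 and Lyz2 because they separate the 2 libraries that stood apart. Genes named as examples of an r of at least 0.8 were picked after their values were seen, as was the split of the antibody effect by title number.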

Additional observations from a re-analysis of the deposited data

Results flagged for a closer look

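Each member was checked for a library far from the other 5 in the 6 wt/null, 6 null/null, 6 isotype and 6 anti-TNF libraries, 40 checks in all, by the gap to the nearest library over the whole range, against Dixon's 95% critical value. Chance gives such a gap in about 1 of 20 checks, and the members are correlated. Of the 5 found, all were in wt/null anti-TNF library 2. Among the wt/null libraries they were Atf3 at 948 CPM, Egr1 at 224 CPM and Ier2 at 223 CPM. Among the anti-TNF libraries they were Fosb at 591 CPM and Egr1 at 224 CPM. This library also held the highest summed dendritic cell, natural killer cell and endothelial markers, though not the highest level of every single marker. Their part in these values was not tested.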

How the results depend on the processing

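Under the 20 alternatives, 0 of 10 members were called in every comparison where the alternative could be fitted. DESeq2 called 14 genes for the antibody average where edgeR called 0, 4 against 1 for the genotype average, 2 against 1 for genotype under isotype and under anti-TNF, and 150 against 2 for title number, where limma voom called 110; 0 members were among them. The title number comparison called 82 genes without the 2 libraries that stood apart and 86 without null/null isotype library 2. In DESeq2 the adjusted p was not given for Egr1 in the antibody average. Of 200 estimates per comparison (10 members, 20 alternatives), the sign changed in 51 for genotype averaged over antibody, 15 for genotype under isotype, 28 for genotype under anti-TNF, 1 for antibody averaged over genotype, 21 for antibody in null/null and 0 for antibody in wt/null. The 1 was Fos, at -0.0122 without the 2 libraries that stood apart. With each library left out in turn, the genotype estimate ran from -0.1112 to 0.3603 for Fosb and from -0.3805 to 0.1122 for Egr1, and the cause was not tested. The median antibody estimate of the members ran from 0.10 without the 2 libraries that stood apart to 0.55 in libraries titled 40 alone. In the latter fit, 8 of 10 members, which vary together, had an unadjusted p below 0.05 in edgeR, as had 1466 of 13017 genes. With quality weights in limma voom, 5 of 10 antibody estimates in null/null were above 0, and 9 of 10 for the genotype average. The added fits by title number, chosen after seeing the data, called 0 members with and without those libraries. Replicate numbers come from listing order and pair no samples; with title number as a block, 0 members were called and the median antibody estimate was 0.27. With 3 libraries per group and a within-group SD of 0.34 on the log2 scale, the narrowest 95% interval of a genotype average was that of Fos, -0.36 to 0.30, and of an antibody average also Fos, -0.21 to 0.45.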
